A study of Mus musculus with 6 samples.

Results

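Type I interferon receptors, STAT transcription factors and interferon regulatory factors (IRFs) pass the interferon signal on to its target genes. The genes described here are Ifnar1, Ifnar2, Stat2, Stat3, Irf1, Irf2, Irf3, Irf7 and Irf9. These 9 were picked by symbol, as regulators of that pathway, from the 32245 gene symbols in the count files. All 9 passed the filter on low counts, which left 14378 genes to test.

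Gene-level read counts came from polyadenylated RNA of primary heart muscle cells of newborn wild-type mice, in 6 libraries. BMP2+DM cells (2 libraries) were treated with BMP2 and dorsomorphin, BMP2 cells (2 libraries) with BMP2, and PBS cells (2 libraries) with PBS, the saline control. BMP2 is a secreted growth factor that signals through BMP receptor kinases and SMAD proteins. Dorsomorphin is a small molecule that inhibits those kinases and also AMPK, another kinase. The study asked how BMP2 changes transcription in these cells and how far its SMAD branch takes part. No label names an interferon treatment, a dose, a duration or a group with dorsomorphin alone. Whether the libraries of a group are separate cultures or animals is not stated, so each p-value reflects spread between these samples only, which may be technical. In bulk RNA, fewer cells of a type and less RNA per cell cannot be told apart.

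Gene counts ran from 10106667 to 14366042 per library. Ribosomal-repeat models held 1.31% of them in the library PBS 1 and 2.10% in BMP2 1, against 0.0702% to 0.0928% in the other 4 libraries. All 8 cardiomyocyte markers were detected in each library. Their summed level was 25416 to 25782 CPM, counts scaled to library size, in BMP2+DM, 22582 to 22747 CPM in BMP2 and 30402 to 30985 CPM in PBS libraries. The 12 macrophage and leukocyte markers summed to 65.5 to 68.4 CPM in BMP2+DM, 72.8 to 73.1 CPM in BMP2 and 96.2 to 97.5 CPM in PBS libraries, with at most 2 of the 12 at 0 in a library. Of 6 markers of plasmacytoid dendritic cells and lymphocytes, up to 5 were at 0 in a library, and the only one that passed the filter, Bst2, is itself an interferon target. The 8 endothelial markers summed to 182 to 190 CPM in BMP2+DM, 296 CPM in BMP2 and 335 to 344 CPM in PBS libraries. The 8 epicardial markers summed to 215 to 228 CPM in BMP2+DM, 189 to 194 CPM in BMP2 and 237 to 256 CPM in PBS libraries, and the 8 fibroblast markers to 9346 to 9715 CPM in BMP2+DM, 10719 to 10825 CPM in BMP2 and 9316 to 9932 CPM in PBS libraries. The cardiomyocyte, leukocyte, endothelial and epicardial sums were thus highest in PBS libraries, as were the interferon targets described below, and their part in those results was not tested. Single markers did not all follow their sum. In BMP2 against PBS, log2 fold changes ran from -1.23 to 0.01 for cardiomyocyte and -0.95 to 0.63 for endothelial markers. They ran from -2.34 to 0.58 for epicardial markers and -0.92 to 0.21 for the 6 leukocyte markers that passed the filter. In BMP2+DM against PBS the same lists, in this order, ran from -1.09 to 0.13, -1.75 to 0.19, -1.07 to 0.91 and -1.46 to 0.38.

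Type I interferons bind a receptor made of IFNAR1 and IFNAR2, whose kinases JAK1 and TYK2 phosphorylate STAT proteins. STAT2 and IRF9 then enter the nucleus in the complex ISGF3, which binds the interferon-stimulated response element (ISRE) of antiviral genes. IRF3 and IRF7 switch on the interferon genes themselves after sensors detect nucleic acid, IRF1 and IRF2 bind related sites as activator and mostly repressor, and STAT3 answers cytokines of the interleukin-6 family at gamma-activated sites (GAS).

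Promoter sequences are shown for 4 of the genes as examples: Stat2 and Irf1, which were lower in both BMP2 groups and hold 1 motif each, Irf7, which was also lower and holds none, and Irf2, which holds both motifs but was not called. They are from the RefSeq promoter table (build GRCm38.p6), in the direction of transcription and ending before the annotated start. Capitals mark matches to the ISRE core GAAANNGAA or the GAS core TTCNNNGAA, searched on both strands. Stat2 is shown from chr10:128270248-128270497 (plus strand), Irf1 from chr11:53769764-53770013 (plus strand), Irf2 from chr8:46739495-46739731 (plus strand) and Irf7 from chr7:141266482-141266674 (minus strand).
Stat2: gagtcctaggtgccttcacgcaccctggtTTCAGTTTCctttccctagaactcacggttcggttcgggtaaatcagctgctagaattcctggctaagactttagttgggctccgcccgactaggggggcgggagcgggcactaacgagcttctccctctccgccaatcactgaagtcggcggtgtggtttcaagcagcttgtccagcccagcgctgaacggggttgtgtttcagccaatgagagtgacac
Irf1: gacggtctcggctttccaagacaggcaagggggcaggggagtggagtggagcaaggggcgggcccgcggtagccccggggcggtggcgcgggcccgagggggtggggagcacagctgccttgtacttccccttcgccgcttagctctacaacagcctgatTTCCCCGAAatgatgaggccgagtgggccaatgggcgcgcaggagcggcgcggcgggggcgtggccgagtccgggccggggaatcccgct
Irf2: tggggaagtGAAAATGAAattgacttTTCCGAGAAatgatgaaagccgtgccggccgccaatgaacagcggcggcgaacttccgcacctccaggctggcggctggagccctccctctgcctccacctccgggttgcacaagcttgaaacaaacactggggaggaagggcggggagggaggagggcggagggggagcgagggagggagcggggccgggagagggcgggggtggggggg
Irf7: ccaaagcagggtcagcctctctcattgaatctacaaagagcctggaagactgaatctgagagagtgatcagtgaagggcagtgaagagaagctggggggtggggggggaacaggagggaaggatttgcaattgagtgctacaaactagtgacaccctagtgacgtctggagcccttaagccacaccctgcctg

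In the full windows, which run from 250 bases before to 50 bases after the RefSeq start, all 9 genes had an entry. The ISRE core was found in 2 of the 9: in Stat2 on the opposite strand, beginning 221 bases before the start, and in Irf2, beginning 241 bases before it. The GAS core was found in 4 of the 9: Ifnar1 (5 bases before the start), Ifnar2 (214), Irf1 (90) and Irf2 (224). The ISRE core occurred in 8.56% of 32851 windows and in 8.45% of the 10732 tested genes with a window, and the GAS core in 8.30% of windows and 8.03% of those genes. In target lists described below, 13 of 24 ISGF3 targets with a window held the ISRE core (54.2%), as did 8 of 14 IRF1 targets (57.1%) and 1 of 15 STAT3 targets (6.67%). The windows of Irf7, Irf9, Irf3 and Stat3 held neither string, which says only that these letters are not there. For Irf9, the windows (chr14:55603735-55604034 and chr14:55604329-55604628) lie inside the annotated span of the gene (chr14:55603571-55610030, plus strand). Bases before that span were thus not searched.

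Of the regulators, 4 differed from PBS libraries in both treated groups. Irf7, Stat2, Irf9 and Irf1 were lower in BMP2 than in PBS libraries and lower in BMP2+DM than in PBS libraries. The receptor genes Ifnar1 and Ifnar2, the sensor-activated Irf3, and Stat3 were not called in any comparison. BMP2+DM and BMP2 libraries were not separated by the test for any of the 9. Changes are log2 fold changes with standard errors from the quasi-likelihood test of edgeR, and a gene is called at a Benjamini-Hochberg adjusted p under 0.05 over all 14378 genes.

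In BMP2 against PBS libraries, 0 of the 9 were called higher and 4 lower by edgeR, beside 6.55% of all tested genes called higher and 9.29% called lower. At an unadjusted p under 0.05 these counts were 0 and 5, and with DESeq2 they were 0 and 4. In BMP2+DM against PBS libraries, 0 were called higher and 4 lower by edgeR, beside 9.38% and 11.5% of all tested genes. At an unadjusted p under 0.05 and with DESeq2 the counts were again 0 and 4. In BMP2+DM against BMP2 libraries edgeR called 0 higher and 0 lower, beside 4.28% and 4.44% of all tested genes, with 0 and 0 at an unadjusted p under 0.05 and with DESeq2. The comparisons share libraries, so their values are given side by side and not as repeats of each other.

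**Figure D1:**
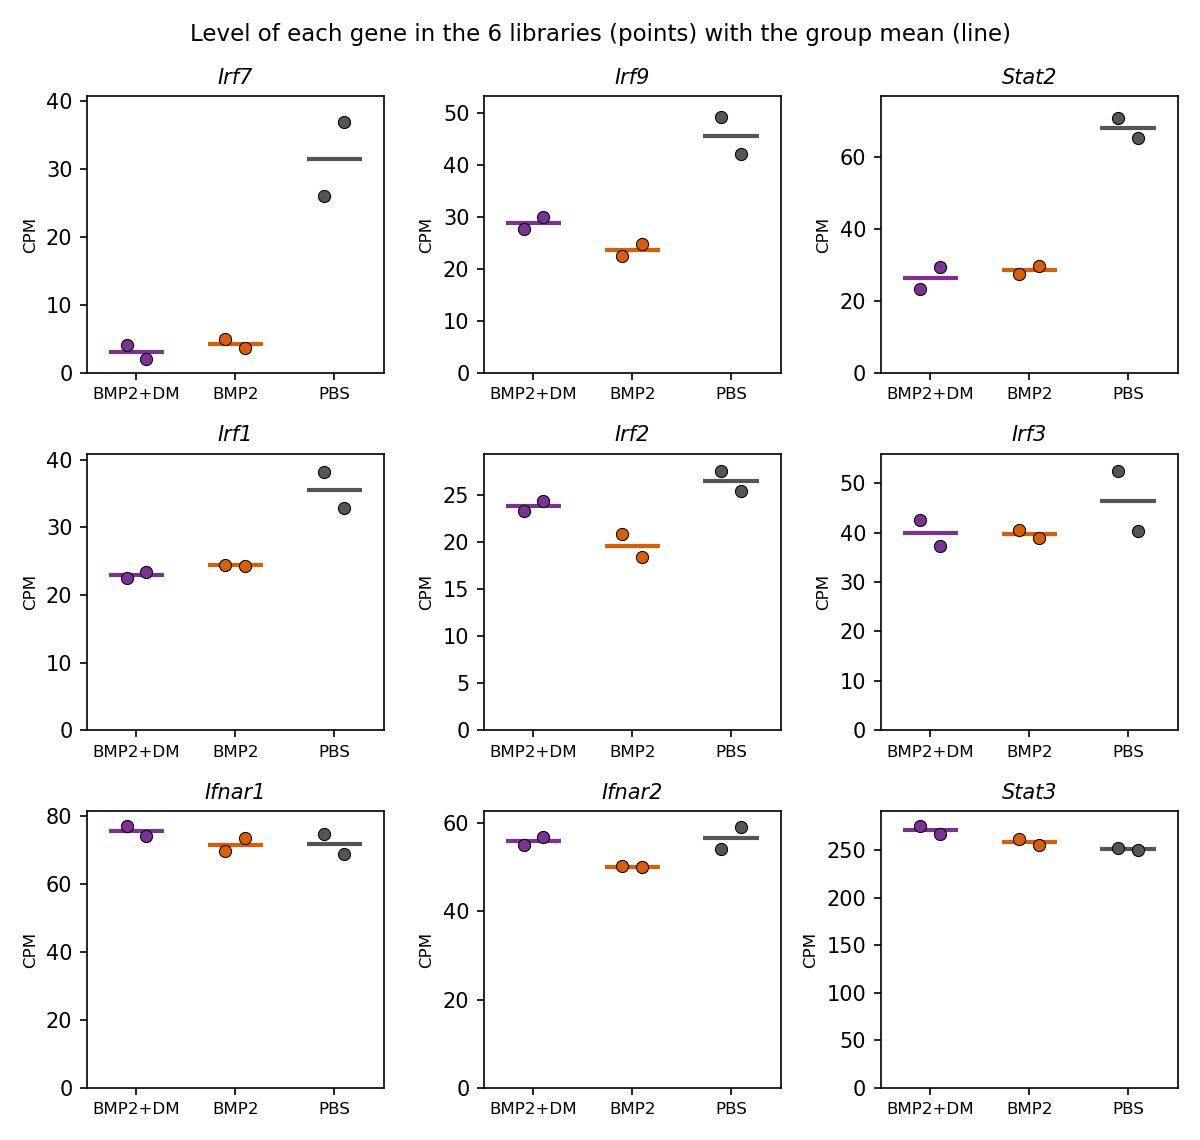
Level of each of the 9 genes in CPM (linear axes from 0), with 1 point per library and a line at the mean of the 2 libraries of a group. Irf7, Irf9, Stat2 and Irf1 sit lower in all BMP2+DM and BMP2 libraries than in PBS libraries, while Stat3 stays between 250.04 and 276 CPM throughout.

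Irf7 encodes the IRF that drives most interferon-alpha production and is itself induced by interferon. The gene lies at chr7:141262706-141266481 on the minus strand (mm10), and its promoter is the one printed above without a match. Its counts were 43 and 21 in BMP2+DM, 54 and 38 in BMP2, and 364 and 424 in PBS libraries. As levels, these were 4.16 and 2.04 CPM in BMP2+DM, 4.91 and 3.63 CPM in BMP2, and 26.0 and 36.9 CPM in PBS libraries. Both PBS libraries were far above the other 4, and the BMP2+DM and BMP2 libraries overlapped. Irf7 fell by 2.87 ± 0.26 on the log2 scale in BMP2 relative to PBS libraries (7.32-fold lower, edgeR adjusted p = 3.89e-07) and by 3.33 ± 0.27 in BMP2+DM relative to PBS libraries (10.1-fold lower, adjusted p = 7.46e-08). Between BMP2+DM and BMP2 its log2 fold change was -0.46 ± 0.33 (adjusted p = 0.458). That last value rests on few reads: it was -1.07 without BMP2+DM 1 and -0.04 without BMP2+DM 2. Across the 6 libraries the highest level of Irf7 was 18.1 times the lowest, the widest range of the 9 genes.

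Stat2 and Irf9 encode the STAT and the DNA-binding subunit of ISGF3, and both are known interferon targets as well. Stat2 (chr10:128270559-128292849, plus strand), whose printed promoter holds the ISRE core, had 23.3 and 29.5 CPM in BMP2+DM, 27.6 and 29.6 CPM in BMP2, and 70.8 and 65.3 CPM in PBS libraries. Its 4 BMP2+DM and BMP2 libraries overlapped, and all lay below both PBS libraries. Stat2 fell by 1.25 ± 0.13 on the log2 scale in BMP2 relative to PBS libraries (2.38-fold lower, edgeR adjusted p = 1.63e-06) and by 1.37 ± 0.13 in BMP2+DM relative to PBS libraries (2.58-fold lower, adjusted p = 4.12e-07). Between BMP2+DM and BMP2 its log2 fold change was -0.11 ± 0.14 (adjusted p = 0.695).

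Irf9 (chr14:55603571-55610030, plus strand) had 27.7 and 30.0 CPM in BMP2+DM, 22.6 and 24.8 CPM in BMP2, and 49.2 and 42.0 CPM in PBS libraries. The 3 groups did not overlap: PBS libraries were highest, BMP2+DM libraries intermediate and BMP2 libraries lowest. Relative to PBS libraries, Irf9 fell by 0.95 ± 0.13 on the log2 scale in BMP2 (1.93-fold lower, edgeR adjusted p = 6.59e-05) and by 0.66 ± 0.13 in BMP2+DM (1.58-fold lower, adjusted p = 0.00132). The step between BMP2+DM and BMP2 was 0.29 ± 0.14 and was not called (adjusted p = 0.244). Set per kilobase of exon, so that both genes can be compared, Stat2 over Irf9 was 0.766 and 0.894 in BMP2+DM, 1.11 and 1.08 in BMP2, and 1.31 and 1.41 in PBS libraries. By this measure Stat2 stood above Irf9 in PBS and BMP2 libraries and below it in BMP2+DM libraries, as it did in CPM. Which gene stands higher depends on the exon lengths used (5926 bases for Stat2 and 5386 for Irf9), which pool all annotated isoforms. The change of the ratio between groups does not depend on them. Without the libraries PBS 1 and BMP2 1, both high in ribosomal repeats, Irf9 was no longer called: its log2 fold change was -0.76 in BMP2 against PBS (adjusted p = 0.0737) and -0.54 in BMP2+DM against PBS (adjusted p = 0.0743). That fit keeps 1 PBS and 1 BMP2 library, which are assumed to vary like the BMP2+DM libraries. With all libraries kept and the ribosomal-repeat models removed, Irf9 stayed called, at -0.95 (adjusted p = 3.86e-05) and -0.66 (adjusted p = 0.000986).

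Irf1 encodes an activator of antigen-presentation and guanylate-binding protein genes, and Irf2 a factor that competes for the same sites. Irf1 (chr11:53770014-53778374, plus strand) had 22.6 and 23.4 CPM in BMP2+DM, 24.5 and 24.3 CPM in BMP2, and 38.1 and 32.8 CPM in PBS libraries. The BMP2+DM libraries were lowest, the BMP2 libraries just above them and the PBS libraries highest, with no overlap. Relative to PBS libraries, Irf1 fell by 0.54 ± 0.14 on the log2 scale in BMP2 (1.46-fold lower, edgeR adjusted p = 0.00992) and by 0.63 ± 0.14 in BMP2+DM (1.54-fold lower, adjusted p = 0.00283), and between BMP2+DM and BMP2 its log2 fold change was -0.09 ± 0.14 (adjusted p = 0.786). The call against PBS was lost in BMP2 without PBS 1 (-0.43, adjusted p = 0.135), without BMP2 1 (-0.54, adjusted p = 0.0601) or without BMP2 2 (-0.54, adjusted p = 0.0628). In BMP2+DM it was lost without PBS 1 (-0.51, adjusted p = 0.057). Without PBS 1 and BMP2 1 together it was lost in both, at -0.43 (adjusted p = 0.309) for BMP2 and -0.52 (adjusted p = 0.102) for BMP2+DM. With all libraries kept and the ribosomal-repeat models removed it was called in both (adjusted p = 0.00854 for BMP2 and 0.00228 for BMP2+DM).

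Irf2 (chr8:46739732-46847458, plus strand) had 23.2 and 24.3 CPM in BMP2+DM, 20.8 and 18.3 CPM in BMP2, and 27.4 and 25.4 CPM in PBS libraries. Its 3 groups did not overlap, with BMP2 lowest. No difference of Irf2 was called: the log2 fold change was -0.43 ± 0.15 in BMP2 against PBS (edgeR adjusted p = 0.051), 0.28 ± 0.15 in BMP2+DM against BMP2 (adjusted p = 0.292) and -0.15 ± 0.14 in BMP2+DM against PBS (adjusted p = 0.502). The first of these lies at the threshold. It was called by edgeR with RLE size factors, DESeq2's kind of scaling computed in edgeR (adjusted p = 0.0494). The same test called it with only the libraries of those 2 groups in the fit (0.0492) and without ribosomal-repeat models (0.0479). Leaving out BMP2+DM 1 also gave a call. It was not called by edgeR with upper-quartile factors (adjusted p = 0.0536), with the replicate block (0.0576) or without the filter (0.0613). Neither the DESeq2 test (adjusted p = 0.146) nor a minimum fold of 1.5 gave a call, and leaving out PBS 1 gave none (-0.38). Per kilobase, Irf1 over Irf2 was 1.81 and 1.79 in BMP2+DM, 2.19 and 2.47 in BMP2, and 2.58 and 2.40 in PBS libraries. Per kilobase, the activator thus stood above its competitor in every library, by the least in BMP2+DM. This order rests on exon lengths of 3976 bases for Irf1 and 7396 for Irf2, which pool all annotated isoforms. In CPM, Irf1 was below Irf2 in each BMP2+DM library and above it in the BMP2 and PBS libraries.

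The receptor genes were nearly level. Ifnar1 (chr16:91485238-91507441, plus strand) had 77.1 and 74.2 CPM in BMP2+DM, 69.7 and 73.5 CPM in BMP2, and 74.8 and 69.0 CPM in PBS libraries, and the PBS libraries overlapped both other groups. Ifnar2 (chr16:91372783-91405589, plus strand) had 55.1 and 56.9 CPM in BMP2+DM, 50.2 and 50.02 CPM in BMP2, and 54.2 and 59.2 CPM in PBS libraries. Here the BMP2 libraries were lowest and the other 4 overlapped. Ifnar1 had log2 fold changes of -0.01 ± 0.09 in BMP2 against PBS, 0.08 ± 0.09 in BMP2+DM against BMP2 and 0.07 ± 0.09 in BMP2+DM against PBS (edgeR adjusted p = 0.975, 0.687 and 0.642). Those of Ifnar2 were -0.18 ± 0.10, 0.16 ± 0.10 and -0.02 ± 0.10 (adjusted p = 0.287, 0.406 and 0.939). Of the exon bases of Ifnar2, 9.46% are shared with the same-strand model Gm21970, so its count may miss or include reads of that model. For the other 8 genes the share of exon bases that overlap another gene was at most 3.40%, in Irf1.

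Irf3 encodes the IRF that is present before infection and is activated by phosphorylation. Irf3 (chr7:44997648-45002848, plus strand) had 42.6 and 37.2 CPM in BMP2+DM, 40.6 and 39.0 CPM in BMP2, and 52.5 and 40.2 CPM in PBS libraries. PBS 1 stood above the other 5 libraries, and PBS 2 lay within their range. The log2 fold changes of Irf3 were -0.23 ± 0.13 in BMP2 against PBS, 0.01 ± 0.14 in BMP2+DM against BMP2 and -0.22 ± 0.13 in BMP2+DM against PBS (edgeR adjusted p = 0.294, 0.988 and 0.282). Without PBS 1 the first was -0.02 and the third -0.0125. Irf7 and Irf3 act at the same interferon promoters, and per kilobase Irf7 over Irf3 was 0.0891 and 0.04998 in BMP2+DM, 0.110 and 0.0849 in BMP2, and 0.452 and 0.837 in PBS libraries, highest in PBS with no overlap.

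Stat3 (chr11:100885098-100939540, minus strand) had 276 and 267 CPM in BMP2+DM, 262 and 255 CPM in BMP2, and 253 and 250.04 CPM in PBS libraries. Its groups did not overlap, with BMP2+DM highest, but the highest library was only 1.10 times the lowest. The log2 fold changes were 0.04 ± 0.05 in BMP2 against PBS, 0.07 ± 0.05 in BMP2+DM against BMP2 and 0.11 ± 0.05 in BMP2+DM against PBS (edgeR adjusted p = 0.682, 0.499 and 0.164). Stat3 was the one of the 9 with a positive fold change in all 3 comparisons, and none was called.

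**Figure D2:**
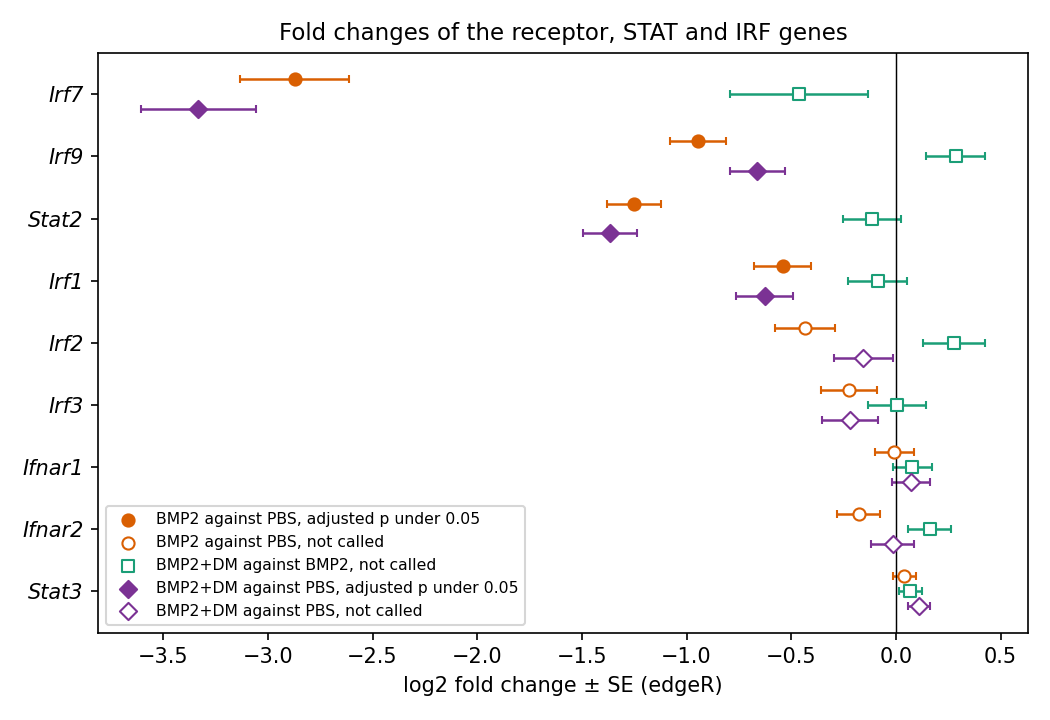
Log2 fold changes of the 9 genes (points) with standard errors (bars) in BMP2 against PBS (circles), BMP2+DM against BMP2 (squares) and BMP2+DM against PBS (diamonds). Filled symbols are called at an adjusted p under 0.05: Irf7, Irf9, Stat2 and Irf1 against PBS, and none in BMP2+DM against BMP2.

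Per kilobase of exon, the order of levels was the same at the top in every group and differed below. Orders between genes depend on these exon lengths, which pool all annotated isoforms. Stat3 was highest in every group, at 28.5 ± 0.65 CPM per kb in BMP2+DM, 27.1 ± 0.49 in BMP2 and 26.4 ± 0.19 in PBS libraries (SD, n = 2 each), followed by Ifnar2 at 16.8 ± 0.39, 15.1 ± 0.036 and 17.0 ± 1.1 CPM per kb in the same groups. In BMP2+DM the order went on with Ifnar1, Irf3, Irf1, Irf9, Stat2, Irf2 and Irf7, and no neighbours overlapped. In BMP2 it was Ifnar1, Irf3, Irf1, Stat2, Irf9, Irf2 and Irf7, where Ifnar1 and Irf3 overlapped. In PBS it was Irf3, Ifnar1, Stat2, Irf1, Irf9, Irf7 and Irf2, where Irf3 overlapped Ifnar1, Ifnar1 overlapped Stat2, and Irf1, Irf9 and Irf7 could not be ordered. Irf7 was last in BMP2+DM (0.821 ± 0.40 CPM per kb) and in BMP2 (1.13 ± 0.24), and stood beside Irf1 and Irf9 in PBS libraries (8.33 ± 2.0).

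Targets were set beside the regulators in lists of known target genes, described by counts and median without a test of the list. The median log2 fold change of all tested genes was 0.0044 in BMP2 against PBS, 3e-04 in BMP2+DM against BMP2 and 0.007 in BMP2+DM against PBS. Shares called higher and lower among all tested genes were 6.55% and 9.29%, 4.28% and 4.44%, and 9.38% and 11.5% in the same order. ISGF3 targets are antiviral genes that interferon induces. Of 28 tested, 0 were called higher and 26 lower in BMP2 against PBS libraries, with a median log2 fold change of -2.30, and 0 higher and 25 lower in BMP2+DM against PBS libraries, with a median of -2.50. The summed level of the list was 480 to 482 CPM in BMP2+DM, 431 to 451 CPM in BMP2 and 1104 to 1107 CPM in PBS libraries.

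The first ISGF3 targets given here were picked by smallest p, which favours large changes. Their size beside Stat2 and Irf9 is thus not read as a result. Ifit1, which encodes a binder of foreign RNA, had 2.13 and 2.72 CPM in BMP2+DM, 5.64 and 3.72 CPM in BMP2, and 59.9 and 56.8 CPM in PBS libraries. Ifit3, its binding partner, had 4.94 and 4.57 CPM in BMP2+DM, 6.18 and 3.53 CPM in BMP2, and 64.1 and 65.6 CPM in PBS libraries. Both were lower in the 4 BMP2+DM and BMP2 libraries than in either PBS library. Relative to PBS, Ifit3 fell by 3.73 ± 0.19 on the log2 scale in BMP2 and by 3.77 ± 0.19 in BMP2+DM, and Ifit1 by 3.63 ± 0.19 and by 4.58 ± 0.21 in the same groups. Oasl2, of the oligoadenylate synthetase family, fell by 2.37 ± 0.16 in BMP2 and by 2.69 ± 0.16 in BMP2+DM, and Ifi44 fell by 3.60 ± 0.27 and by 4.45 ± 0.30 (edgeR adjusted p at most 4.14e-08 for these 4 genes). Not called in BMP2 against PBS were Isg20 (-0.67 ± 0.45) and Herc6 (-0.25 ± 0.34).

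Between BMP2+DM and BMP2, 3 of 28 ISGF3 targets were called higher, 3 lower and 22 neither, with a median log2 fold change of -0.11. Of all tested genes, 4.28% were called higher and 4.44% lower in this comparison. These few calls are not read as a result about the list. Bst2, which tethers budding viruses, rose by 0.62 ± 0.12 on the log2 scale, Ifit2 by 0.54 ± 0.12 and Ifitm3, which blocks viral entry, by 0.28 ± 0.07. Rtp4 fell by 1.68 ± 0.39, Ifit1 by 0.95 ± 0.27 and Rsad2, which encodes the antiviral enzyme viperin, by 2.10 ± 0.64 (edgeR adjusted p between 0.00331 and 0.0495 for these 6). The falls rest on few reads. Summed over a group, Rtp4 had 20 counts in BMP2+DM and 67 in BMP2, Ifit1 50 and 101, and Rsad2 7 and 32. Rsad2 had no read in BMP2+DM 2. The count of lower calls was 1 without any single one of PBS 1, PBS 2, BMP2 2, BMP2+DM 1 and BMP2+DM 2, and the count of higher calls was 1 without BMP2 2 or without BMP2+DM 1. Without PBS 1 and BMP2 1 together no target of this list was called in BMP2+DM against BMP2, while 23 and 22 were called lower in BMP2 and in BMP2+DM against PBS.

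**Figure D3:**
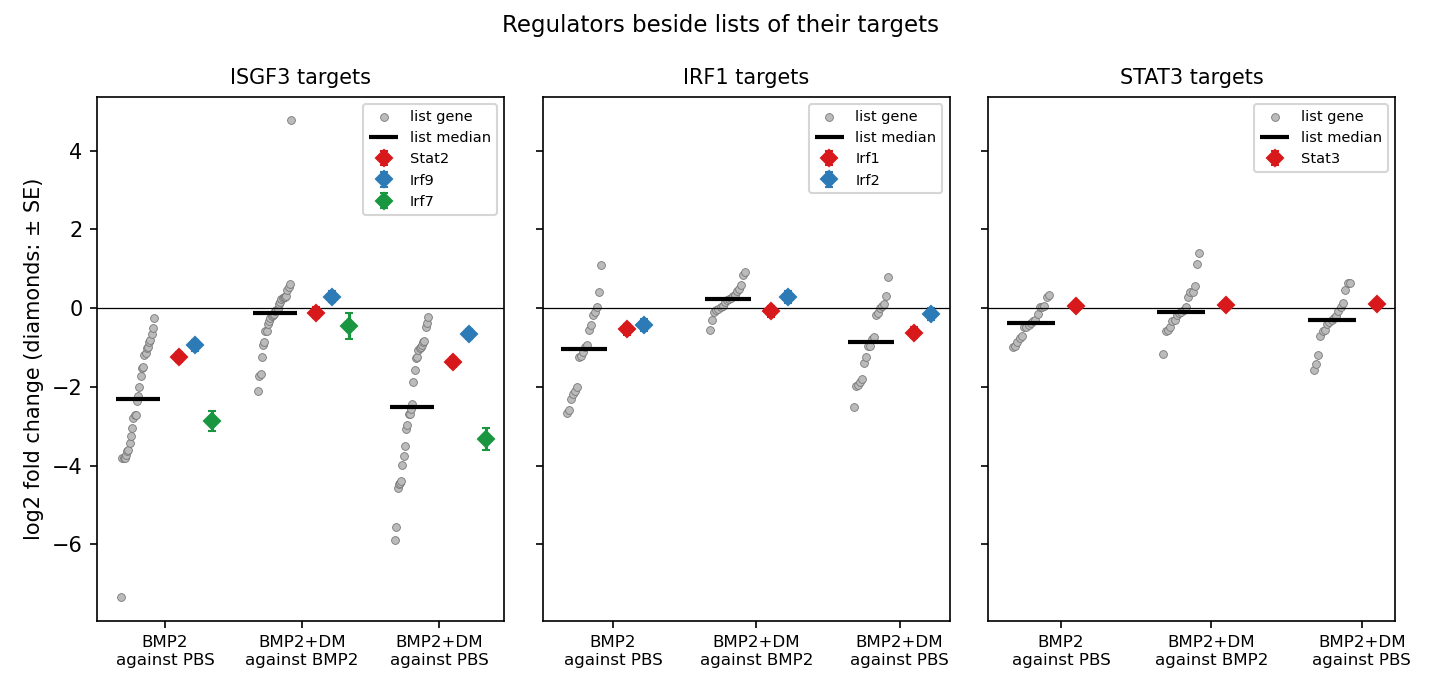
Log2 fold changes of the tested genes of 3 target lists (grey points, with the list median as a bar) beside their regulators (coloured diamonds with standard errors) in each comparison. ISGF3 targets lie below 0 against PBS with medians of -2.30 and -2.50, as do Irf7, Stat2 and Irf9, while Stat3 stays near 0 beside its targets; the extreme grey points at -7.33 and 4.77 are Oas3, whose count was 0 in both BMP2 libraries, so that these fitted values depend on the prior count.

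IRF1 targets are mostly genes of antigen presentation and guanylate-binding proteins. Of 18 tested, 1 was called higher and 11 lower in BMP2 against PBS libraries (median log2 fold change -1.05), and 0 higher and 10 lower in BMP2+DM against PBS libraries (median -0.87). Gbp3, a guanylate-binding protein gene, had 3.68 and 4.08 CPM in BMP2+DM, 3.001 and 4.01 CPM in BMP2, and 21.2 and 23.3 CPM in PBS libraries, so that only PBS libraries stood apart. It fell by 2.66 ± 0.23 on the log2 scale in BMP2 and by 2.51 ± 0.22 in BMP2+DM relative to PBS. The immunity-related GTPase gene Irgm1 fell by 1.24 ± 0.10 in BMP2 and by 1.79 ± 0.11 in BMP2+DM, Igtp by 2.01 ± 0.21 and by 1.96 ± 0.21, and Gbp2 by 2.10 ± 0.23 and by 1.25 ± 0.21 (edgeR adjusted p at most 0.000324). The one higher call was the proteasome subunit gene Psmb10 (0.40 ± 0.12, adjusted p = 0.0277), named after its value was seen. That call was lost without PBS 1, PBS 2, BMP2 1 or BMP2 2, and with DESeq2.

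In BMP2+DM against BMP2 libraries, 3 of 18 IRF1 targets were called higher, 1 lower and 14 neither (median log2 fold change 0.22). Of all tested genes, 4.28% were called higher and 4.44% lower there. B2m, the light chain of class I molecules, rose by 0.26 ± 0.05 on the log2 scale, the peptide-loading gene Tapbp by 0.43 ± 0.11 and Gbp2 by 0.85 ± 0.25, while Irgm1 fell by 0.56 ± 0.11 (edgeR adjusted p between 0.00325 and 0.0391). The count of higher calls was 1 without BMP2 2 or without BMP2+DM 2, and the lower call was lost without BMP2 1. Without PBS 1 and BMP2 1 together 0 were called in this comparison, and 6 and 7 were lower in BMP2 and in BMP2+DM against PBS. Irf1 itself was 1.46-fold and 1.54-fold lower against PBS, and many of these targets also answer ISGF3, so the list does not belong to IRF1 alone.

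STAT3 targets are acute-phase and cytokine-response genes, and Stat3 itself was not called. Of 17 tested, 1 was called higher and 11 lower in BMP2 against PBS (median log2 fold change -0.39), 3 higher and 5 lower in BMP2+DM against BMP2 (median -0.11), and 2 higher and 9 lower in BMP2+DM against PBS (median -0.30). The kinase gene Pim1 had 28.4 and 31.1 CPM in BMP2+DM, 23.4 and 21.8 CPM in BMP2, and 45.7 and 43.7 CPM in PBS libraries, lowest in BMP2 with no overlap. Relative to PBS it fell by 0.99 ± 0.13 on the log2 scale in BMP2 and by 0.59 ± 0.13 in BMP2+DM. In BMP2 relative to PBS, Lcn2, which encodes an iron-binding acute-phase protein, fell by 0.96 ± 0.13, the receptor genes Il4ra by 0.87 ± 0.14 and Il6st by 0.30 ± 0.05, and the survival gene Mcl1, named after its value was seen, rose by 0.29 ± 0.05 (edgeR adjusted p at most 0.000864).

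Saa3, which encodes an acute-phase serum amyloid, stood highest in BMP2+DM libraries. It had 19.3 and 23.3 CPM in BMP2+DM, 6.73 and 9.36 CPM in BMP2, and 15.0 and 12.4 CPM in PBS libraries, with no overlap between groups. In BMP2+DM relative to BMP2 libraries, Saa3 rose by 1.41 ± 0.21 on the log2 scale and Steap4, a metalloreductase gene, by 1.11 ± 0.14, while Timp1, a protease inhibitor gene, fell by 1.17 ± 0.09 and Junb, a subunit gene of AP-1, by 0.58 ± 0.09 (edgeR adjusted p at most 0.000226). The count of lower calls in that comparison was 3 without PBS 1, PBS 2, BMP2 1 or BMP2 2 and 2 without BMP2+DM 1 or BMP2+DM 2. Without PBS 1 and BMP2 1 together, 2 STAT3 targets were lower in BMP2 against PBS and 7 in BMP2+DM against PBS.

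Interferon genes themselves were all but absent: of 21 interferon ligand genes, 20 had 0 counts in every library and Ifnab had 1 count, in PBS 1. A count of 0 allows up to 3 counts, or 0.214 to 0.291 CPM per library, counting error only. The interferon-gamma and interferon-lambda receptor genes and the receptor kinases Jak1, Jak2 and Tyk2 gave 0 higher and 0 lower calls among 7 tested in BMP2 against PBS and in BMP2+DM against BMP2, and 0 and 1 in BMP2+DM against PBS. In a list of this size these counts are near the shares of all tested genes given above. The one call was Jak2, lower in BMP2+DM against PBS (-0.47 ± 0.12 on the log2 scale, edgeR adjusted p = 0.00936), a call lost without PBS 1, PBS 2 or BMP2+DM 2. Among other factors of these families, Stat5a, which serves growth hormone and prolactin receptors, rose by 0.58 ± 0.14 in BMP2 relative to PBS (adjusted p = 0.00757), a call lost without PBS 2, and Irf2bpl, of the IRF2-binding protein family, fell by 0.42 ± 0.09 in BMP2+DM relative to PBS (adjusted p = 0.00224).

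Usp18, an interferon-induced enzyme that blocks IFNAR2 signalling, had log2 fold changes of -3.31 ± 0.22 in BMP2 and -3.90 ± 0.24 in BMP2+DM relative to PBS (edgeR adjusted p = 7.93e-09 and 1.59e-09). Cish and Socs2, inhibitors of growth-factor and STAT5 signalling, rose in BMP2 relative to PBS, by 0.48 ± 0.09 and 0.55 ± 0.10 (adjusted p = 0.000863 and 0.000993). In BMP2+DM relative to BMP2 libraries Cish fell by 0.48 ± 0.09 (adjusted p = 0.00213), and Socs3, the feedback inhibitor of STAT3, had 32.5 CPM in BMP2+DM and 40.3 CPM in BMP2 on average and was not called. Of the 13 negative regulators tested, 2 were called higher and 1 lower in BMP2 against PBS, 0 and 1 in BMP2+DM against BMP2, and 1 and 2 in BMP2+DM against PBS. These counts are close to what the shares of all tested genes (6.55% and 9.29%, 4.28% and 4.44%, 9.38% and 11.5%) give in a list of that size, so nothing is read from the list as a whole. In the last comparison Socs2 was higher (0.32 ± 0.10) and Ptpn1, a phosphatase gene, lower (-0.38 ± 0.12); the first call was lost without PBS 1, PBS 2 or BMP2+DM 2, and the count of lower calls was 1 without PBS 2 or BMP2+DM 2.

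Sensors and adaptors, many of which act upstream of IRF3 and IRF7, gave more lower than higher calls against PBS as a list. In this list, 9 genes were not called in BMP2 against PBS and 10 in BMP2+DM against PBS. Of 17 tested sensors and adaptors, 1 was called higher and 7 lower in BMP2 against PBS, 1 higher and 0 lower in BMP2+DM against BMP2, and 1 higher and 6 lower in BMP2+DM against PBS. The counts in BMP2+DM against BMP2 are near the shares of all tested genes there (4.28% and 4.44%). The cytosolic RNA sensors Ddx58 (RIG-I), Ifih1 (MDA5) and Dhx58 fell by 1.14 ± 0.12, 1.33 ± 0.15 and 2.73 ± 0.35 on the log2 scale in BMP2 relative to PBS, and Trim25, which activates RIG-I, by 0.86 ± 0.10 (edgeR adjusted p at most 2.39e-05). Mavs, their shared adaptor, rose by 0.52 ± 0.11 in BMP2 and by 0.69 ± 0.11 in BMP2+DM relative to PBS (adjusted p = 0.00301 and 0.00018). The one call in BMP2+DM against BMP2 was Tlr2, a receptor for bacterial lipoproteins, which rose by 0.79 ± 0.20 (adjusted p = 0.0179), a call lost without BMP2 1, BMP2 2 or BMP2+DM 2.

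Genes nearest to each called regulator were found over the 6 libraries among 11067 genes, by the root mean square difference of log2 CPM centred on the gene's mean. With 6 libraries in 3 groups, these are descriptions. For Irf7 they were Usp18 (0.333), Cxcl10, Iigp1, Oasl2 and Ifit3 (0.482), all known as interferon-induced genes. For Stat2 they were Helz2 (0.126), S100a4, Parp10, Akap12 and Loxl3, and for Irf9 they included Serpina3g (0.0730), Col6a2, Trim55 and Ablim3. For Irf1 they were Atp8a2 (0.0188), Cst3, Nrep, Arhgef25 and Tyro3. No neighbour of Stat2, Irf9 or Irf1 named here is on one of the lists, while Usp18, Oasl2 and Ifit3 are. The interferon-induced Cxcl10 and Iigp1 are on none either. Absence from the lists thus does not show that a neighbour is unrelated to interferon. The distance scales with the size of the change, so it does not rank the regulators against each other.

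**Figure D4:**
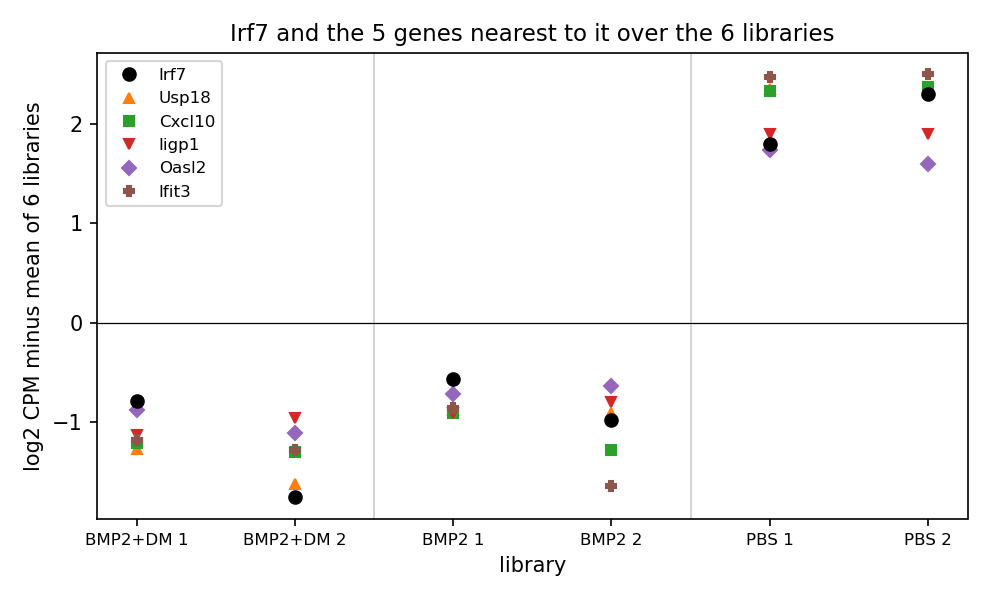
Log2 CPM of Irf7 and its 5 nearest genes in each library, as the difference from the gene's own mean over the 6 libraries. All 6 genes lie below 0 in the BMP2+DM and BMP2 libraries and above 0 in the PBS libraries, and Irf7 spans from -1.76 in BMP2+DM 2 to 2.30 in PBS 2.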

How the data were processed

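Each deposited file holds, per the authors' format, a raw read count for every gene symbol of 1 library. The submitters' processing notes name mm10 as the genome and list these tools with no version: FastQC and Trimmomatic, the aligner STAR, the counter HTSeq, and DESeq2. Annotation and strand setting are not stated, so reads of overlapping genes cannot be assigned by strand. Summary lines that name no gene (53.8% to 54.2% of each file) were left out. Counts were tested with edgeR 4.0.16 (R 4.3.3; filterByExpr with minimum count 10 and minimum total 15; TMM; quasi-likelihood F test) in 1 fit of all 6 libraries with group means and 3 residual degrees of freedom. Standard errors are the absolute log2 fold change over the square root of F. CPM uses TMM-adjusted library sizes; lengths are exon unions of GENCODE vM21. Replicates differed by more than sampling noise (chi-square per degree of freedom 3.58 to 4.27 without ribosomal-repeat models). Genes named are the 9 regulators, up to 4 genes per list and comparison with the smallest p, any gene of a list of at most 7, and 5 nearest genes per called regulator with mean log2 CPM of at least 2 (prior count 2). The regulators and lists were chosen with earlier results of these data known. Some genes that this rule picks are not reported here. Alternatives were DESeq2 1.42.0, other size factors, no filter, 2 groups only, the replicate block, a minimum fold of 1.5, no ribosomal-repeat models, and libraries left out. A planned alignment of IRF proteins was not made. Figures used matplotlib 3.10.9 in Python 3.11.15.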

Additional observations from a re-analysis of the deposited data

How the results depend on the processing

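With 2 libraries per group, small changes depend on single libraries. Levels of the 9 genes with edgeR's RLE size factors, DESeq2's kind of scaling, moved by less than 1 SD. Without PBS 1 and BMP2 1, the libraries high in ribosomal repeats, 171 genes were higher and 403 lower in BMP2 against PBS, 137 and 176 in BMP2+DM against BMP2, and 533 and 855 in BMP2+DM against PBS, and 2 of the 9 regulators (Irf7 and Stat2) were lower in BMP2 and 2 in BMP2+DM against PBS; that fit rests on 4 libraries, with only BMP2+DM replicated. Against a minimum fold of 1.5, the counts were 56 and 235, 38 and 60, and 95 and 329, again with 2 and 2 regulators lower. Leaving out 1 library at a time gave 475 to 1028 higher and 843 to 1442 lower genes in BMP2 against PBS, 314 to 528 and 356 to 553 in BMP2+DM against BMP2, and 742 to 1298 and 1085 to 1630 in BMP2+DM against PBS. Regulators called lower then numbered 3 to 5, 0 to 0 and 3 to 4. Signs turned for uncalled values alone, and the cause was not tested. Over the fits that left out libraries, Ifnar1 in BMP2 against PBS ran from -0.0625 (without PBS 2) to 0.0918 (without PBS 1 and BMP2 1), with 0.05 without PBS 1 and 0.03 without BMP2 1. Ifnar2 in BMP2+DM against PBS ran from -0.0813 (without PBS 1 and BMP2 1) to 0.0487 (without PBS 2), with 0.0040 without BMP2+DM 1. In BMP2+DM against BMP2, Irf3 ran from -0.10 (without BMP2+DM 1) to 0.10 (without BMP2+DM 2), with -0.02 without BMP2 2, and Stat2 from -0.29 (without BMP2+DM 2) to 0.0438 (without BMP2+DM 1). With the replicate block, 932 genes were higher and 1329 lower in BMP2 against PBS and 4 of the 9 regulators were lower. Deviations of same-numbered libraries from their group means correlated at r = 0.079 (BMP2 and PBS), -0.00296 (BMP2+DM and BMP2) and -0.0287 (BMP2+DM and PBS) across genes, so the numbers were not read as pairs.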
